A study of Rattus norvegicus with 12 samples.

Results

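Described here are 10 genes of acid and ammonia transport that are known from kidney intercalated cells: Rhbg, Rhcg, Car2, Car12, Atp6v1b1, Atp6v0a4, Slc4a1, Slc4a9, Slc26a4 and Foxi1. They were taken from a fixed list of symbols, and all 10 had a probe set with a single gene symbol, 1 probe set each, among the 14506 genes tested. RNA came from primary cultured IMCD cells, the epithelium of the inner medullary collecting duct, from male SD rats aged 7 weeks. All cultures grew for 4 days in hyperosmolar medium of 640 mOsm/kg, and were then moved to hypo-osmolar medium of 300 mOsm/kg or kept at 640 for 48 or 24 h. The 4 groups were thus 300 at 48 h, 640 at 48 h, 300 at 24 h and 640 at 24 h, with 3 samples each on Affymetrix Rat Gene 1.0 ST arrays. Nothing in the labels ties a sample to its own animal or culture, and the p-values rest on a spread among samples that may be technical alone. No sample was taken before the step to 300, and cultured cells need not keep every trait of the tissue.

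Intercalated cells are the acid- and base-secreting cells of the collecting duct, scattered among the principal cells that handle water and sodium. Cytosolic carbonic anhydrase makes protons and bicarbonate from carbon dioxide and water, a proton pump (V-ATPase) drives the protons into the urine, and chloride-bicarbonate exchangers return bicarbonate to the blood or, in the base-secreting type, release it into the urine. Ammonia crosses the cells through the Rh glycoproteins and carries acid out with the urine. Intercalated cells become rare towards the tip of the inner medulla, and carbonic anhydrase 2 and Rhbg are not confined to them.

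The levels are log2 values, on which a step of 1 is a doubling of signal, and changes are compared within a gene, with levels of different genes set side by side only as a rough description of brightness. The arrays did not share one scale. Their medians over the genes tested ran from 6.81 to 6.97 at 48 h and from 6.89 to 7.58 at 24 h, where replicate 1 at 300 and replicate 3 at 640 were the low ones. Changes between osmolalities are therefore given on the deposited values and, where it matters, on arrays shifted to a common median (centred arrays).

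As the files used here hold no detection calls, the 10 genes were set beside the probe sets of 53 olfactory receptor genes, which are not known as genes of this epithelium. Those 53 had mean log2 values from 2.20 to 5.99, with a median of 3.50 and the 95th percentile at 4.99. The top of the range was set by 1 gene, and the next highest mean was 5.18. Only Rhbg, Car2 and Car12 had a mean over the 12 arrays above that whole range. The other 7 means, from 4.72 to 5.43, fell within it, and those of Rhcg, Atp6v1b1, Slc4a1 and Slc4a9 were at or below its 95th percentile. All 7 lay in its upper part. Only 1 of the 53 receptor genes had a mean above those of Atp6v0a4, Foxi1 and Slc26a4. For Slc4a1 it was 3 of the 53, and for Rhcg, Atp6v1b1 and Slc4a9 it was 5. Probe sets differ in brightness for the same amount of RNA, so this is a description and not a detection limit. The median over all genes tested was 7.10, also above the olfactory range. Of 18 other intercalated cell markers measured, 7 had means above that range, against 13 of 16 principal cell markers, among them the water channels Aqp2 and Aqp3. The genes are therefore described by their function, and the presence of intercalated cells in the cultures is not taken from their label. In these bulk samples, fewer cells of a type and less RNA per cell cannot be told apart.

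**Figure D1:**
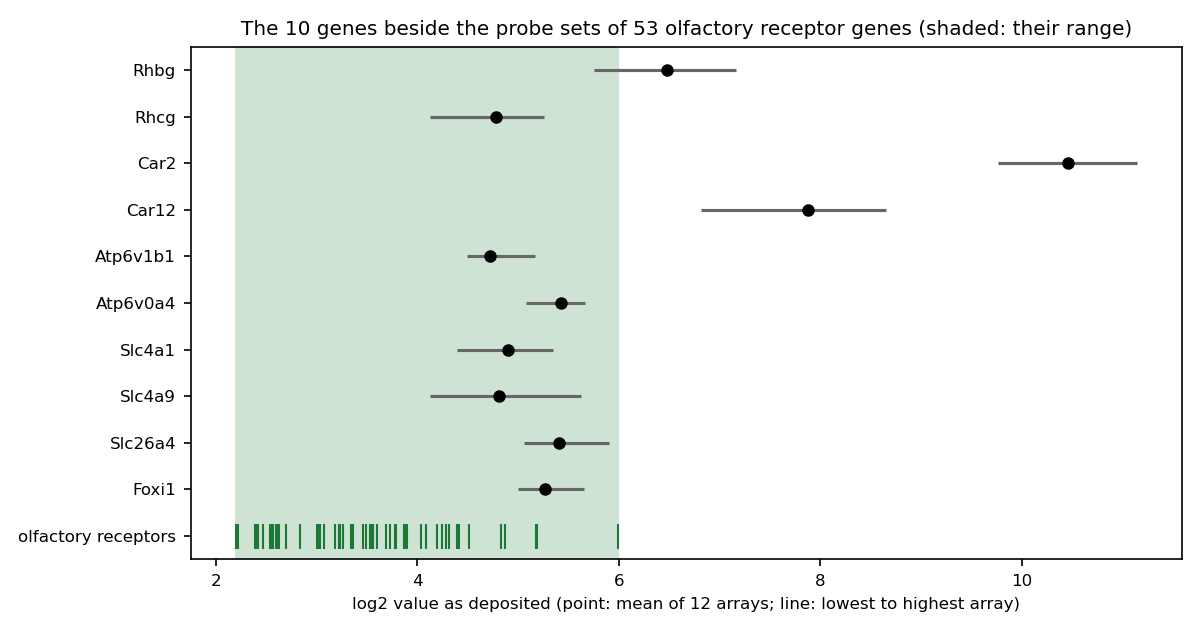
Mean log2 value over 12 arrays (points) and the range from the lowest to the highest array (lines) of the 10 genes, above the means of 53 olfactory receptor genes (ticks; shaded band, 2.20 to 5.99). Rhbg, Car2 and Car12 have means above the band, and the other 7 genes lie within it on all 12 arrays.

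Sequences upstream of 3 of the genes are shown, of Rhbg and Car12 because their levels differed between osmolalities at 48 h, and of Atp6v1b1 because it held the 1 motif found. They are RefSeq sequences of the rat assembly GRCr8, read 5′ to 3′ on the gene's strand, and end at the outermost annotated start of the gene. Rhbg is shown at chr2:176015202-176015399 on the minus strand, Car12 at chr8:76169565-76169722 and Atp6v1b1 at chr4:117781194-117781443, both on the plus strand. Capitals mark a motif.
Rhbg: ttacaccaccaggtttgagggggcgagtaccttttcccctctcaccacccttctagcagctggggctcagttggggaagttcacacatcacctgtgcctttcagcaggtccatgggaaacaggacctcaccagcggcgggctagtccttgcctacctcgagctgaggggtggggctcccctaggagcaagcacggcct
Car12: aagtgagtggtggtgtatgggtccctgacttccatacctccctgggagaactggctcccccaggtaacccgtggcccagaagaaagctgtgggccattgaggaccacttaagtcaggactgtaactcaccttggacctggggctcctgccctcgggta
Atp6v1b1: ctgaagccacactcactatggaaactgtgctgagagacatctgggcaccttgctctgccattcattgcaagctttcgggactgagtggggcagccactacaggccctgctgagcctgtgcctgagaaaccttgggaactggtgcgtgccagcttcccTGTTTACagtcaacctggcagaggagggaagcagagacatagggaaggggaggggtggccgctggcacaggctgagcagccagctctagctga

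Promoter windows of 8 of the 10 genes were searched on both strands (Car2 and Slc4a1 were not searched). They ran from 250 bases before to 50 after the start listed for each promoter. For Rhbg and Car12 that start lies inside the outermost annotated gene. Of the 250 bases before it, 198 and 158 are therefore printed. The forkhead motif TGTTTAC, of the kind bound by forkhead factors such as Foxi1, was in the window of Atp6v1b1 alone, at position -93 from the start on the gene's strand, and in 3.78% of 33469 rat promoters. Neither the second forkhead form TGTTTAT (4.55% of all promoters), nor the consensus of the tonicity element bound by Nfat5 (5.45%), nor the GATA motif AGATAA (11.6%) was in any of the 8 windows. These matches describe the letters of the windows only.

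The comparison of 300 with 640 asks which of these genes respond when medullary cells lose their high osmolality. After 48 h at 300, Rhbg was lower by a factor of 2.05 and was the 1 gene of the 10 that passed the test on the deposited values. Car12 had a similar log2 change, -0.91, and passed on centred arrays. The other 8 genes had log2 changes between -0.30 and 0.14 at 48 h, and after 24 h all 10 lay between -0.43 and 0.24 with none past the test. The test was limma's with Benjamini-Hochberg adjustment over 14506 genes and a threshold of 0.05, which 0.717% of all genes passed at 48 h (0.545% as falls) and 0.0896% at 24 h. On centred arrays these shares were 1.85% (1.33% as falls) and 0.655%. At an unadjusted p under 0.05, 2 of the 10 passed at 48 h (4.74% of all genes) and 0 at 24 h (2.9%). On centred arrays, 2 of the 10 passed at 48 h (8.18% of all genes) and 1, Car2, at 24 h (5.45%). The 3 arrays at 300 did not overlap the 3 at 640 for 2 of the 10 at 48 h, both lower (6.62% of all genes), and for 0 at 24 h (4.27%). Of the 10, 6 were lower at 300 at either time. Their median log2 change was -0.05 at 48 h and -0.06 at 24 h, beside 0.02 and -0.02 over all genes.

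**Figure D2:**
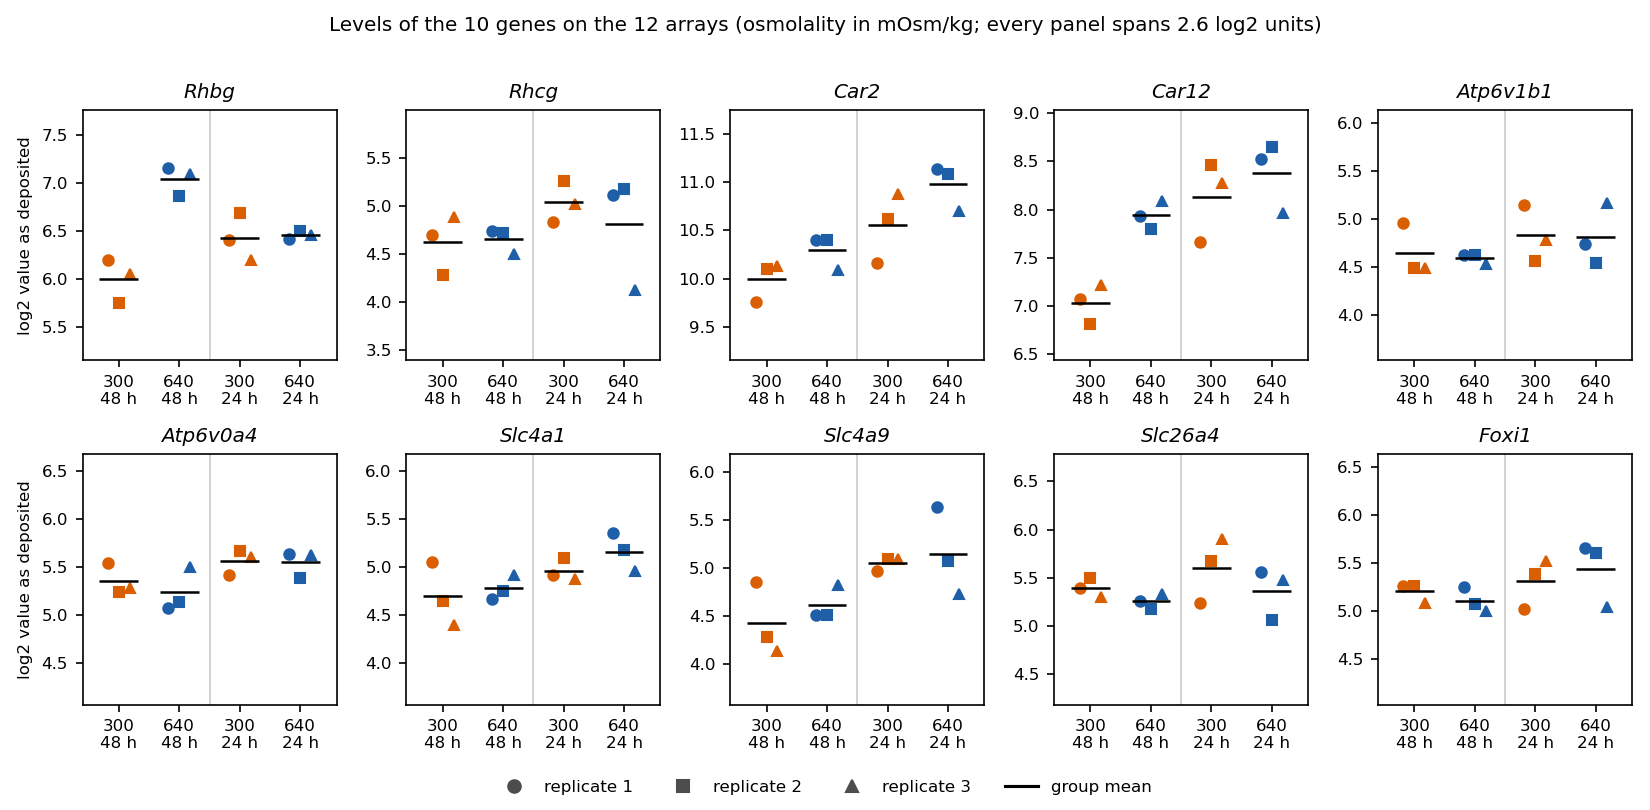
Deposited log2 values of the 10 genes (vertical axes, each spanning 2.6 log2 units) on each array, in the groups 300 and 640 at 48 h and 300 and 640 at 24 h from left to right, with symbols for the replicate number and lines for group means. For Rhbg and Car12 the 3 arrays at 300 lie below the 3 at 640 at 48 h, while in the other 8 panels the arrays at 48 h overlap.

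Rhbg, the basolateral ammonia channel, had log2 values of 6.20, 5.75 and 6.05 at 300 after 48 h, against 7.16, 6.86 and 7.09 at 640. All 3 arrays at 300 were below all 3 at 640, on the deposited values and on centred arrays (7.02% of genes there). The means were 6.00 ± 0.23 at 300 and 7.04 ± 0.15 at 640 (SD, n = 3 each), and the log2 change was -1.04 ± 0.20 SE (95% confidence interval -1.46 to -0.62, limma adjusted p = 0.0199). On centred arrays it was -1.03 ± 0.22 SE (limma adjusted p = 0.0244). At 300 its arrays lay on either side of the top of the olfactory receptor range, and at 640 all 3 lay above it.

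The direction held without any 1 of these 6 arrays, with log2 changes from -1.13 to -0.91, but the call mostly did not. The limma adjusted p was 0.127 without replicate 1 at 640, 0.0513 without replicate 2 and 0.104 without replicate 3, and 0.157 and 0.0986 without replicates 2 and 3 at 300. Without replicate 1 at 300 it was 0.0421. On centred arrays it was 0.0486 without replicate 2 at 640 and from 0.0555 to 0.144 without any 1 of the other 5, a check chosen after seeing the data. Leaving out arrays also leaves fewer of them for the test.

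At 24 h, Rhbg had log2 values of 6.4, 6.69 and 6.20 at 300, against 6.42, 6.50 and 6.45 at 640. The 2 groups overlapped, with a log2 change of -0.03 ± 0.20 SE and a 95% confidence interval of -0.45 to 0.39. The log2 change at 48 h was thus lower by 1.01 ± 0.28 SE than that at 24 h (95% confidence interval of the difference -1.60 to -0.41, unadjusted p = 0.00261 in limma's fit over all 12 arrays). Over all genes this difference between times did not pass the test (limma adjusted p = 1), nor did any gene on the deposited values (0.0%; 0.441% had an unadjusted p under 0.05). On centred arrays 0.0276% of genes passed, with none of the 10 among them, and 0.903% had an unadjusted p under 0.05, with Rhbg and Car12 among them.

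Rhbg also moved with time in the cultures kept at 640. On the deposited values its mean was 7.04 ± 0.15 at 48 h, against 6.46 ± 0.04 at 24 h (SD, n = 3 each). On centred arrays these means were 7.25 ± 0.18 and 6.25 ± 0.35, so the small spread at 24 h was not seen on that scale. All 3 arrays at 48 h were above all 3 at 24 h, which 0.379% of genes showed on the deposited values and 4.95% on centred arrays. The log2 change over time was 0.58 ± 0.20 SE on the deposited values, where the median gene moved by -0.41, and 0.99 ± 0.22 SE on centred arrays, where the median gene moved by 0.002. Neither passed over all genes (limma adjusted p = 0.145 and 0.185). At 300 the change over time was -0.43 ± 0.20 SE on the deposited values, where the median gene moved by -0.38, and 0.003 ± 0.22 SE on centred arrays. The order of its group means on the deposited values was 640 at 48 h, 640 at 24 h, 300 at 24 h and 300 at 48 h, of which the middle pair overlapped. On centred arrays both groups at 300 overlapped, with means of 6.21 at 48 h and 6.21 at 24 h, so the last place is not settled.

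Rhcg, another ammonia channel of the Rh family, ranged from 4.28 to 4.88 at 300 and from 4.50 to 4.74 at 640 after 48 h. The groups overlapped, and the log2 change was -0.03 with a 95% confidence interval of -0.60 to 0.54. After 24 h it ranged from 4.83 to 5.25 at 300 and from 4.13 to 5.18 at 640 (log2 change 0.23, interval -0.35 to 0.80). The lowest value at 640 came from replicate 3, an array with a low median. Rhag and Rhd, the 2 other Rh family genes measured, also lay within the olfactory range, and neither passed the test at 48 h or 24 h.

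Car12, a carbonic anhydrase anchored in the cell membrane with its active site outside the cell, had log2 values of 7.07, 6.81 and 7.21 at 300 after 48 h, against 7.94, 7.80 and 8.09 at 640. The groups did not overlap. The means were 7.03 ± 0.20 at 300 and 7.94 ± 0.15 at 640 (SD, n = 3 each), and the log2 change was -0.91 ± 0.24 SE, a 1.88-fold difference (95% confidence interval -1.43 to -0.39). It did not pass over all genes on the deposited values (limma adjusted p = 0.172). With the same size and a smaller error it passed on centred arrays (-0.91 ± 0.16 SE, limma adjusted p = 0.00457), and there it passed without any 1 of the 6 arrays too (limma adjusted p from 0.00726 to 0.0366, a check chosen after seeing the data). On the deposited values it passed with array weights (limma adjusted p = 0.00619) and in a fit of the 48 h arrays alone (limma adjusted p = 0.0300). On those values Car12 passed in 0 of the 6 fits that each left out 1 array (limma adjusted p from 0.3552 to 0.729). Its call at 48 h thus depended on the scale and the fit.

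After 24 h Car12 had log2 values of 7.67, 8.46 and 8.28 at 300, against 8.52, 8.65 and 7.97 at 640, and the groups overlapped. The lowest array of each group was the one with the low array median. On centred arrays the values were 7.87, 7.97 and 7.91 at 300, against 8.19, 8.18 and 8.17 at 640, and the groups no longer overlapped (4.86% of all genes showed this on centred arrays). The log2 change at 24 h was -0.25 ± 0.24 SE on the deposited values (limma adjusted p = 1) and -0.26 ± 0.16 SE on centred arrays (limma adjusted p = 1). The change at 48 h was lower than that at 24 h by 0.66 ± 0.35 SE on the deposited values (unadjusted p = 0.0755) and by 0.65 ± 0.22 SE on centred arrays (unadjusted p = 0.0105), with limma adjusted p = 1 and 0.9999.

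Over time at 300, Car12 averaged 7.03 ± 0.20 at 48 h, against 8.13 ± 0.42 at 24 h (SD, n = 3 each), and the groups did not overlap on the deposited values (23.5% of genes in this direction) or on centred arrays (4.85%). The log2 change was -1.10 ± 0.24 SE on the deposited values and -0.67 ± 0.16 SE on centred arrays, neither past the test (limma adjusted p = 0.130 and 0.113). At 640 the change over time was -0.44 on the deposited values, close to that of the median gene there, and -0.02 on centred arrays. Car12 and Rhbg were both lower at 300 than at 640 at 48 h without overlap. On the deposited values both were also lower at 48 h than at 24 h at 300, where the median gene moved by -0.38. On centred arrays Car12 was lower at 48 h at 300, and Rhbg was higher at 48 h at 640. Neither of these changes passed the test (limma adjusted p = 0.113 and 0.185). That contrast between both genes was not tested. Markers of other cells differed between the times on the same scale: all 8 fibroblast markers were higher at 48 h at both osmolalities (median log2 changes of 1.12 at 300 and 1.06 at 640, with 4 and 3 past the test), and the macrophage list had medians of 0.47 at 300 and 0.58 at 640. Their part in the changes of Rhbg and Car12 over time was not tested.

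Car2, the abundant cytosolic carbonic anhydrase, had log2 values of 9.76, 10.10 and 10.13 at 300 after 48 h, against 10.40, 10.40 and 10.09 at 640. The groups overlapped through replicate 3 at 640, and the log2 change was -0.30 ± 0.22 SE (95% confidence interval -0.78 to 0.18). After 24 h the values were 10.16, 10.62 and 10.88 at 300, against 11.14, 11.09 and 10.71 at 640, with an overlap through replicate 3 at either osmolality. The log2 change was -0.43 ± 0.22 SE (limma adjusted p = 1), and -0.44 ± 0.19 SE on centred arrays, where the groups did not overlap but the test was not passed (limma adjusted p = 0.779). On the deposited values its order of means was 640 at 24 h, 300 at 24 h, 640 at 48 h and 300 at 48 h, each neighbour overlapping the next, and on centred arrays the middle pair changed places.

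Of 13 other carbonic anhydrases measured, 0 passed at either time on the deposited values, and 6 were lower at 300 at 48 h and 10 at 24 h. On centred arrays Car8, a carbonic anhydrase-related protein without enzyme activity, was lower at 300 than at 640 at 48 h (-1.13 ± 0.18 SE, limma adjusted p = 0.00314). Its centred means were 5.34 at 300 and 6.46 at 640 at 48 h, against 4.96 and 5.15 at 24 h. Over time on that scale it rose past the test at 640 but not at 300. Car5b, a mitochondrial form, was lower at 300 on centred arrays at 48 h (-0.83 ± 0.17 SE, limma adjusted p = 0.0178) and at 24 h (-0.80 ± 0.17 SE, limma adjusted p = 0.0491). Car5b had log2 values of 10.14, 10.40 and 10.17 at 300 after 48 h, against 10.97, 11.22 and 11.03 at 640, without overlap. On centred arrays at 48 h, Car8 and Car5b were the 2 of these 13 that passed, and 7 of the 13 were higher at 300. Car5b was among the 6 of the 13 with means above the olfactory range, and Car8 was not. The membrane form Car12 also passed on that scale, while cytosolic Car2 did not. A link between the fall and the type of carbonic anhydrase was not tested.

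**Figure D3:**
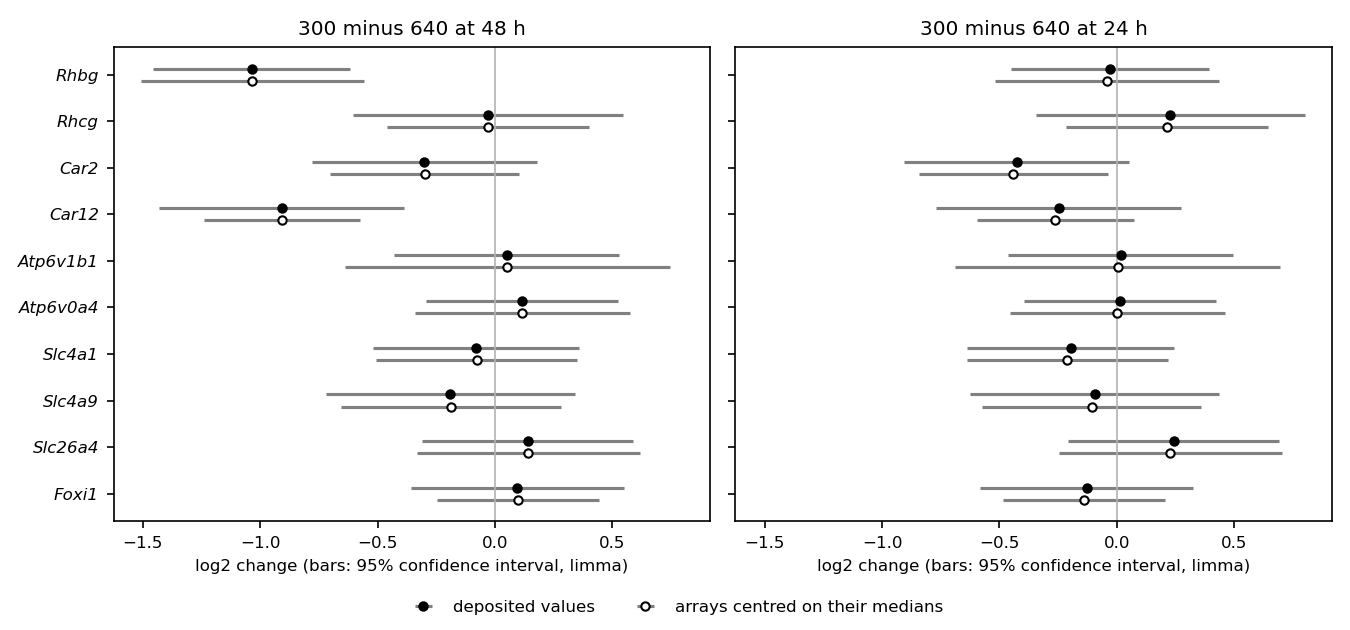
Log2 change, 300 minus 640, of the 10 genes at 48 h (left) and 24 h (right), with 95% confidence intervals from limma, on deposited values (filled) and on arrays centred on their medians (open). At 48 h the intervals of Rhbg and Car12 lie below 0 on both scales, and those of the other 8 genes include 0.

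Atp6v1b1 and Atp6v0a4 encode the V-ATPase subunits that kidney intercalated cells use in place of more widely expressed paralogs, and loss of either causes distal renal tubular acidosis in humans. Atp6v1b1 ranged from 4.49 to 4.95 at 300 and from 4.53 to 4.63 at 640 after 48 h, with a log2 change of 0.05 (95% confidence interval -0.43 to 0.53). Atp6v0a4 ranged from 5.24 to 5.54 at 300 and from 5.08 to 5.50 at 640, with a change of 0.11 (interval -0.29 to 0.52). Both overlapped between osmolalities at both times, and their changes at 24 h were 0.02 and 0.01. Both lay within the olfactory range on all 12 arrays.

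The widely expressed paralogs were measured beside them. Atp6v1b2, the general B subunit, averaged 11.16 ± 0.07 at 300 and 11.17 ± 0.05 at 640 after 48 h (SD, n = 3 each), with a log2 change of -0.01 (95% confidence interval -0.56 to 0.54, and -0.32 to 0.31 on centred arrays). Atp6v0a1 and Tcirg1, alternative a subunits of the membrane sector, had changes of 0.11 and 0.26. Of 22 other V-ATPase genes measured, 12 were lower at 300 at 48 h and 14 at 24 h, none passed at either time on either scale, and 19 had means above the olfactory range. Their median log2 change was -0.01 at 48 h.

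Slc4a1, Slc4a9 and Slc26a4 are anion exchangers. Slc4a1 (band 3, AE1) returns bicarbonate to the blood from acid-secreting cells and is also the exchanger of red cells, Slc26a4 (pendrin) secretes bicarbonate from base-secreting cells, and Slc4a9 (AE4) lies in the basolateral membrane of base-secreting cells. After 48 h Slc4a1 ranged from 4.39 to 5.05 at 300 and from 4.67 to 4.91 at 640 (log2 change -0.08, 95% confidence interval -0.52 to 0.36). Slc4a9 ranged from 4.13 to 4.86 at 300 and from 4.50 to 4.82 at 640 (-0.19, interval -0.72 to 0.34). Slc26a4 ranged from 5.30 to 5.50 at 300 and from 5.18 to 5.33 at 640 (0.14, interval -0.31 to 0.59).

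In all 3 genes the groups overlapped at 48 h on the deposited values. On centred arrays Slc26a4 was higher at 300 without overlap (7.83% of genes showed this), but its log2 change of 0.14 did not pass (limma adjusted p = 0.9992). At 24 h the changes were -0.20 for Slc4a1, -0.09 for Slc4a9 and 0.24 for Slc26a4, all with overlapping groups. The level of Slc4a9 in the 3 arrays at 640 after 24 h was the most scattered of these, from 4.73 to 5.63. Of 7 erythroid markers measured, 6 lay within the olfactory range, and none passed at either time.

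The anion exchanger Slc4a2, which many epithelia use at the basolateral side, averaged 8.90 ± 0.31 at 300 and 9.07 ± 0.31 at 640 after 48 h (SD, n = 3 each), with overlapping groups (log2 change -0.17, 95% confidence interval -0.66 to 0.31). Of 17 other acid-base transporters measured, 12 were lower at 300 at 48 h and 11 at 24 h. The 1 that fell over all genes was Slc4a11, a transporter of the same family, at 48 h (-3.09 ± 0.35 SE, limma adjusted p = 0.000417). At 24 h it passed on centred arrays alone (-1.54 ± 0.22 SE, limma adjusted p = 0.00419).

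Foxi1, the forkhead transcription factor that intercalated cells need to form, as shown in mice, and that switches on Atp6v1b1 and Slc4a9, ranged from 5.09 to 5.27 at 300 and from 5.00 to 5.25 at 640 after 48 h. The log2 change was 0.10 (95% confidence interval -0.36 to 0.55). After 24 h it ranged from 5.02 to 5.53 at 300 and from 5.05 to 5.66 at 640 (-0.13, interval -0.58 to 0.33). In each of these 24 h groups the lowest value came from the array with the low median. On centred arrays Foxi1 was higher at 48 h than at 24 h in the cultures at 300 without overlap (7.29% of genes), by 0.33 ± 0.16 SE (limma adjusted p = 0.657). On the deposited values this change had the opposite sign (-0.10 ± 0.21 SE), and the groups overlapped. Of 14 Notch signalling genes, a pathway that in mice sets the balance between principal and intercalated cells, none passed at 48 h or 24 h on either scale, and 7 were lower at 300 at 48 h.

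Between the times, on the deposited values, 10 of the 10 genes were lower at 48 h than at 24 h at 300 and 9 at 640, and none passed the test (0.0% of all genes passed). At an unadjusted p under 0.05, 4 of the 10 passed at 300 (23.2% of all genes) and 3 at 640 (28.1%). At 300, 4 of the 10 were lower at 48 h without overlap (Rhbg, Car2, Car12 and Slc4a9, 23.5% of all genes), and at 640, 2 were (Car2 and Slc4a1, 27.1% of all genes). The medians of the 10 were -0.34 at 300 and -0.32 at 640, beside -0.38 and -0.41 over all genes, so the median fall of the 10 was smaller than that over all genes. On centred arrays 3 of the 10 were lower at 48 h at each osmolality, with none past the test (0.255% of all genes passed at 300 and 0.138% at 640). There 1 of the 10 had an unadjusted p under 0.05 at 300 (Car12, 7.62% of all genes) and 1 at 640 (Rhbg, 6.58%). Without overlap on that scale were Car12, lower at 48 h at 300 (4.85% of all genes), Foxi1 and Slc26a4, higher at 48 h at 300 (7.29%), and Rhbg, higher at 48 h at 640 (4.95%).

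Related lists at 48 h are given by their counts. Among 8 genes of ammonia production and ammonium uptake, 5 were lower at 300, and Atp1b1, the beta subunit of the sodium pump, fell on centred arrays (-1.01 ± 0.19 SE, limma adjusted p = 0.00914, and 0.0603 on the deposited values). Among 7 acid-sensing genes 1 was lower, and Edn1, the endothelin precursor that collecting duct cells release in acidosis, rose on centred arrays (0.93 ± 0.19 SE, limma adjusted p = 0.0146, and 0.380 on the deposited values). Of 18 other intercalated cell markers, 8 of which also stand in another of these lists, 9 were lower and none passed on either scale. Of 16 principal cell markers 12 were lower and 4 fell on either scale, with Aqp2, the vasopressin-regulated water channel, at -4.41 ± 0.32 SE (limma adjusted p = 1.29e-05).

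**Figure D4:**
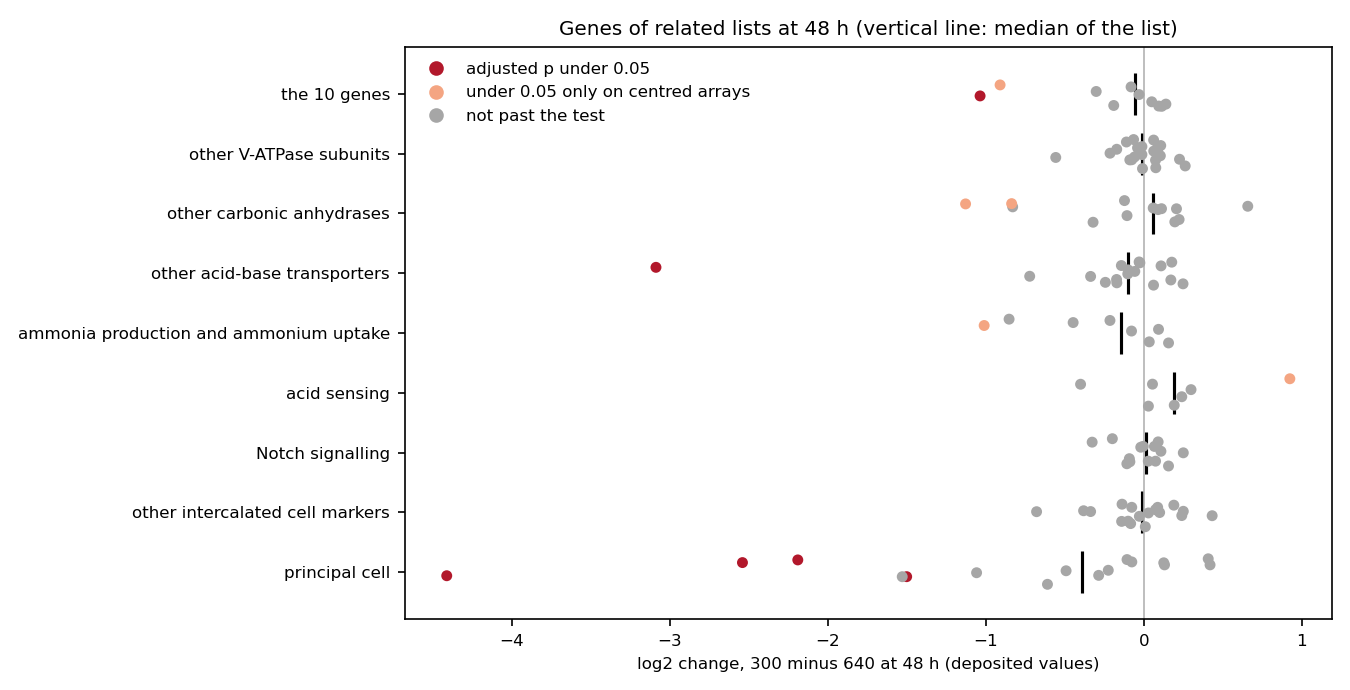
Log2 change, 300 minus 640 at 48 h on deposited values, of each measured gene in the 10-gene group and 8 related lists (rows), coloured by whether it passed limma's adjusted p threshold on deposited values, on centred arrays only, or not. Black lines mark list medians, from -0.39 for principal cell markers to 0.19 for acid sensing.

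Levels of markers of other cells are given beside the differences in Rhbg and Car12 at 48 h. All 8 endothelial markers were lower at 300, with an average log2 level over the list from 6.02 to 6.31 on the arrays at 300 and from 6.38 to 6.77 at 640. Of 10 macrophage markers 8 were lower, with averages from 6.14 to 6.46 at 300 and from 6.44 to 6.62 at 640, which overlapped, while the highest change in that list was 0.73. On centred arrays Emcn (-1.32, limma adjusted p = 0.0355) and Csf1r (-0.69, limma adjusted p = 0.0288) fell, and none of either list passed on the deposited values. The principal cell list averaged from 7.96 to 8.05 at 300 and from 8.84 to 8.89 at 640. Its log2 changes were uneven, from -4.41 for Aqp2 to 0.42, with a median of -0.39. Aqp2, Aqp3, Avpr2 and Slc14a2 were those past the test, and 4 of the 16 were higher at 300. The part of these cells in the changes of Rhbg and Car12 was not tested. Of 8 fibroblast markers 3 were lower, and Postn, a matrix protein, rose (1.22 ± 0.20 SE, limma adjusted p = 0.00819). All 7 proximal tubule and all 6 thick ascending limb and distal tubule markers measured had means over the 12 arrays within the olfactory range. Among them Slc12a1, the sodium-potassium-chloride cotransporter of the thick limb, fell on centred arrays (-1.17 ± 0.21 SE, limma adjusted p = 0.00737, and 0.0534 on the deposited values). Its deposited values at 640 after 24 h (7.04, 6.45 and 6.43) lay above that range.

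Over the 12 centred arrays, Rhbg and Car12 correlated with r = 0.42, and Car2 and Car12 with r = 0.60. The genes most like Rhbg, among 7251 brighter named genes, were Mal2 (r = 0.90), Cdh16, the kidney-specific cadherin (0.89), and the metallothionein Mt2A (0.88). Those most like Car12 were Egln3, an oxygen-sensing prolyl hydroxylase (0.93), Prkar1b, a regulatory subunit of protein kinase A (0.92), and Sgms2, a sphingomyelin synthase (0.92). For Car2 they were Ddx39a, Nif3l1 and Inhbb (0.90, 0.83 and 0.83). These correlations describe 12 arrays in 4 groups that share their culture conditions, and they carry no test.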

How the data were processed

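The log2 expression values of 27596 probe sets on 12 arrays are as the authors deposited them, after RMA in Affymetrix Power Tools per the submitters' processing notes (the versions are not given in the sources used here). Whether all arrays were processed together is not given either, and their medians differ, which shifts changes over time. Within the 24 h groups, centring narrowed the spread of some genes and widened that of others. At 640 after 24 h, the SD of Car12 went from 0.36 on the deposited values to 0.01 on centred arrays. Those of Rhbg and Atp6v1b1 went from 0.04 to 0.35 and from 0.32 to 0.68. Probe sets were named through the platform's gene table: 15310 had 1 symbol, 323 several and 11963 none. Of the 15310, 15279 matched a RefSeq gene and none needed a newer symbol. A gene with several probe sets (527 genes) kept the brightest on average, leaving 14506 genes. The test was limma 3.58.1 (R 4.3.3; lmFit, then eBayes) with 1 mean per group and 8 residual degrees of freedom, tested on simulated data first. Errors of changes are moderated standard errors. Promoters came from RefSeq tables of GRCr8. With 3 arrays per group, their number limits the precision. The genes and lists were chosen with earlier results of these data known. The text names all 10 genes, fixed paralogs and up to 4 called genes per list. Groups came from sample titles. Codes in the descriptions name other osmolalities for some groups than titles and treatment labels do, and the titles were followed. Alternatives were other scalings, filters, variance models, probe set rules, a replicate block and leaving out arrays.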

Additional observations from a re-analysis of the deposited data

How the results depend on the processing

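At 24 h the count of 0 genes past the test held under every alternative run, as it did for the difference between times. At 48 h the count of 1 (Rhbg) was 2 (Rhbg and Car12, both lower) on centred arrays, with cyclic loess, with array weights, in a fit of the 48 h arrays alone, and with the replicate block on centred arrays. It lay between 0 and 1 when each array was left out, and between 1 and 2 when this was done on centred arrays, a check chosen after seeing the data. Over time, where 0 genes passed, 4 passed at 300 and 7 at 640 with array weights, and 4 at 300 and 6 at 640 without the pair of 24 h arrays with low medians. It was 0 to 2 at either osmolality when each array was left out. With array weights and without that pair, between 7306 and 10190 of 14506 genes passed over time, and without 1 array up to 3891. The median change of the 10 genes at 48 h ranged from -0.1426 to 0.0145 when each array was left out, and from -0.1113 to 0.0052 on centred arrays, so its sign is not settled. Over all genes, 104 passed at 48 h on the deposited values, 269 on centred arrays, 304 with cyclic loess, 415 with array weights, 217 in the fit of 48 h arrays alone and 403 with the block on centred arrays. At 24 h 13 passed (2 rises) on the deposited values and 95 (40 rises) on centred arrays. With the replicate number as a block, 0 of the 10 passed at 24 h and 1 at 48 h, as without it, and 22 and 118 over all genes. The numbers were not taken to pair the arrays, since deviations of same-numbered arrays correlated with r = -0.13, 0.84 and -0.21 at 24 h and -0.23, 0.80 and -0.22 at 48 h, and at both times replicates 1, 2 and 3 at 300 were most like replicates 3, 2 and 1 at 640, a hint from the data that the design does not give. The 7 genes within the olfactory range had the lowest means of the 10, and array brightness does not tell whether they were expressed.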
